A study of Mus musculus with 12 samples.

Results

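The genes described here encode 6 lipoprotein receptors known to bind apolipoprotein E or the particles that carry it (Lrp1, Vldlr, Lrp8, Sorl1, Lsr and Scarb1) and Lrpap1, a chaperone of the receptor family. They were chosen by name, not by measured values, and all 7 are among the 24499 gene symbols of the count table. The libraries compare CD11c bead-enriched cells of lymph nodes draining an E0771-cOC tumour (E0771 is a mouse mammary carcinoma line), taken on day 9 after injection. The 6 wildtype libraries come from C57BL6 mice and the 6 APOE-KO libraries from APOE-KO mice, and every mouse carried the tumour. How the knockout allele was made, the age of the mice, and whether a library is 1 mouse or a pool were not given in the sources used here, so each p-value reflects only how far these libraries spread, which may be technical. RNA was sequenced from its 3′ end, so reads come from transcript ends and levels were not divided by gene length. Whether 1 transcript end could be counted more than once is not known. Levels are CPM, read counts scaled to a common library size.

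Apolipoprotein E is the ligand by which lipoprotein remnants are recognised and taken into cells. Receptors of the low-density lipoprotein (LDL) receptor family bind it with cysteine-rich repeats, carry it into clathrin-coated pits through adaptor proteins, release it in acid endosomes and return to the surface. In macrophages and dendritic cells, which secrete or take up the protein, the same receptors also clear proteases, cell debris and antigens.

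Apoe itself was at 409 to 531 CPM in the wildtype libraries and at 2.75 to 10.7 CPM in the APOE-KO libraries. Library totals ran from 2381477 to 4898360 counts, and the share of ribosomal Rn45s from 2.71% in wildtype library 3 to 32.2% in wildtype library 1. For Itgax, which encodes CD11c, the wildtype mean was 278 ± 54.0 CPM and the APOE-KO mean 298 ± 36.9 CPM (SD, n = 6 each). All 11 conventional dendritic cell markers on the list were measurable, with sums of 4100 to 5633 CPM in wildtype and 4578 to 5623 CPM in APOE-KO. The sums hide changes both ways (adjusted p under 0.05 in edgeR's quasi-likelihood test, which 1.08% of all tested genes passed with a rise and 0.411% with a fall): Ccr7 and Sirpa rose (log2 fold changes 0.63 and 0.48) and Clec10a fell (-0.88). All 7 plasmacytoid dendritic cell markers had a negative log2 fold change (median -0.86), with sums of 1208 to 2769 CPM in wildtype and 960 to 1278 CPM in APOE-KO, and 4 of them fell (Siglech, Runx2, Klk1 and Cox6a2). The 2769 CPM was wildtype library 1 alone, and the next highest wildtype sum was 1662 CPM. All 7 tested endothelial markers were also negative, with 0 calls (3 at an unadjusted p under 0.05) and sums of 140 to 247 and 122 to 162 CPM. Leaving out 1 library at a time, Sirpa no longer passed when it was wildtype 1, 2 or 5 or any APOE-KO library (highest adjusted p = 0.0964), and Cox6a2 when it was wildtype 1 or APOE-KO 1, 4 or 6 (highest adjusted p = 0.0941). Over all 27 alternative fits, the call ended in 15 for Sirpa, 9 for Cox6a2 and 3 for Ccr7. It ended in 2 for Siglech, 2 for Runx2, 1 for Clec10a and 0 for Klk1. Of 6 tested epithelial markers 5 had an unadjusted p under 0.05, and 1 fell by the adjusted p, Cdh1 (2.39-fold, adjusted p = 0.0172, edgeR). The sum of all 12 was 102 to 172 CPM in wildtype and 8.69 to 117 CPM in APOE-KO, and the groups overlapped through APOE-KO library 4. The part of these cell types in the results on the 7 genes was not tested beyond the covariate fits and correlations given with them.

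The receptor genes did not change detectably between the genotypes. In edgeR's quasi-likelihood test none of the 7 had an adjusted p under 0.05, against 1.49% of the 10714 genes tested, and 1 of them, Lrp1, had an unadjusted p under 0.05, against 12.1% of all tested genes. All 7 passed the filter on low counts. The log2 fold change (APOE-KO over wildtype) was above 0 for 2 genes and below 0 for 5, with a median of -0.10, and over all tested genes the median was -0.02. Wildtype and APOE-KO values overlapped for all 7. Groups without overlap were rare among all tested genes too, at 1.77%. In a bulk sample, fewer cells of a type and less RNA per cell cannot be told apart.

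**Figure D1:**
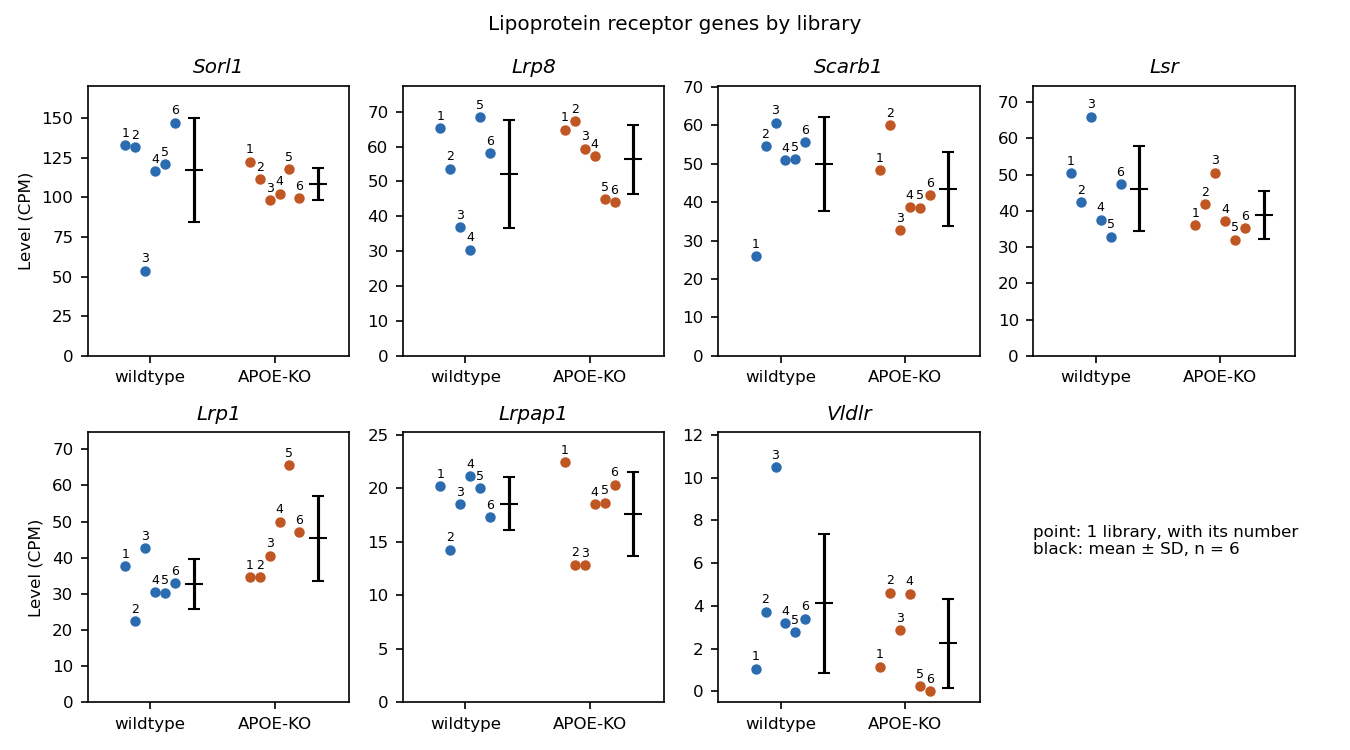
Level of each gene (y axis, CPM, linear, a separate scale for each gene) in the 6 wildtype (blue) and 6 APOE-KO (orange) libraries, each point 1 library with its replicate number, and black bars the mean ± SD. The groups overlap in every panel, Lrp1 has 3 APOE-KO libraries above all wildtype libraries, and wildtype library 3 is apart for Sorl1 and Vldlr.

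The order of the levels fell into 3 tiers below Sorl1. Averaged over the 12 libraries, Sorl1 was at 113 CPM, Lrp8 at 54.2, Scarb1 at 46.6, Lsr at 42.4, Lrp1 at 39.1, Lrpap1 at 18.1 and Vldlr at 3.17 CPM. Sorl1 exceeded Lrp8 in 12 of 12 libraries, as Lrp1 exceeded Lrpap1 and Lrpap1 exceeded Vldlr (each p adjusted over 6 neighbouring pairs = 0.000977, two-sided exact sign-flip test). The pairs were set by sorting the means of the same 12 libraries, which favours low p-values. With both genotypes pooled, Lrp8, Scarb1, Lsr and Lrp1 could not be put in order. Each neighbour was the higher one in 9 of 12 libraries, with adjusted p of 0.331 to 0.385 in the same exact test. The split differed by genotype: Lsr exceeded Lrp1 in 6 wildtype but 3 APOE-KO libraries. Lrp8 exceeded Scarb1 in 3 wildtype and 6 APOE-KO libraries, and Scarb1 exceeded Lsr in 4 and 5. The order within each genotype was not tested. Over the 12 libraries the coefficient of variation was lowest for Lrpap1, at 17.7%, lay between 20.9% and 29.0% for the 5 genes from Sorl1 to Lrp1, and was 87.8% for Vldlr. The median over all tested genes was 28.9%.

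Lrp1 encodes a very large endocytic receptor of macrophages and dendritic cells that takes up remnants carrying apolipoprotein E as well as protease and inhibitor complexes. Its gene spans bases 127538161 to 127621148 of chromosome 10, minus strand (GENCODE vM21 on GRCm38, as for all genes here). Its wildtype levels ran from 22.4 through a median of 31.7 to 42.7 CPM, and its APOE-KO levels from 34.6 through 43.8 to 65.7 CPM. All 6 APOE-KO libraries lay above the wildtype median and 3 lay above every wildtype library, with APOE-KO library 5 the highest. The means were 32.7 ± 6.95 and 45.4 ± 11.8 CPM (SD, n = 6 each), a ratio of 1.39 (log2 fold change 0.47 ± 0.20 SE, 95% interval 0.06 to 0.88). In edgeR's test the p was 0.0253 before adjustment and 0.321 after it, so the difference did not hold up over the genes tested. It stood at 0.34 without APOE-KO library 5 and at 0.58 without wildtype library 3, with adjusted p of 0.150 to 0.563 over fits leaving out 1 library.

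Cell type markers were read beside Lrp1. The 14 macrophage markers summed to 1306 to 1647 CPM in wildtype and 1285 to 1621 CPM in APOE-KO, but single markers changed both ways. Of 13 tested, 2 rose (Cd5l 5.07-fold and C1qb 1.51-fold) and 3 fell (Marco 2.92-fold, Mrc1 2.66-fold and Timd4 2.14-fold). With the mean of the list as a covariate the log2 fold change of Lrp1 was 0.48. The 8 fibroblast and stroma markers summed to 25.2 to 56.1 and 30.6 to 51.7 CPM. The 7 B cell markers summed to 419 to 495 CPM in wildtype and 350 to 440 CPM in APOE-KO. With the B cell mean as a covariate, the log2 fold change of Lrp1 was 0.23 (adjusted p = 0.782).

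Vldlr encodes the very-low-density lipoprotein receptor, which binds triglyceride-rich particles bearing apolipoprotein E and also the signalling protein reelin, and which is best known from heart, muscle and adipose tissue. Its gene spans bases 27216484 to 27254231 of chromosome 19, plus strand. It was close to the limit of counting, with 109 reads over the 6 wildtype libraries and 45 over the 6 APOE-KO libraries. Wildtype levels ran from 1.06 through a median of 3.29 to 10.5 CPM, and APOE-KO levels from 0 through 2.00 to 4.62 CPM. Wildtype library 3 alone held 60 of the wildtype reads, while APOE-KO library 5 held 1 read and APOE-KO library 6 held 0, which allows a level of up to 0.636 CPM by counting error. Its log2 fold change was -0.95 ± 0.72 (SE; adjusted p = 0.657, edgeR), or -0.40 without wildtype library 3. The 95% interval of the ratio ran from 0.185 to 1.44, so neither a fall of over 2-fold nor a small rise could be told from no difference at this depth.

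Lrp8 encodes apolipoprotein E receptor 2, a close relative of the product of Vldlr that shares its ligands and is best known from neurons. Its gene spans bases 107802261 to 107876840 of chromosome 4, plus strand. Unlike Vldlr it was well covered, with 123 to 283 reads in every library. Wildtype levels ran from 30.5 through a median of 55.9 to 68.4 CPM and APOE-KO levels from 44.1 through 58.3 to 67.2 CPM. The APOE-KO range lay inside the wildtype range. On the log2 scale the fold change was 0.12 ± 0.19 (SE), with a 95% interval of -0.28 to 0.52 (adjusted p = 0.877, edgeR).

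Sorl1 encodes a sorting receptor that joins LDL receptor repeats to a VPS10 domain and moves cargo between the Golgi and endosomes. The locus covers bases 41964720 to 42124297 of chromosome 9, minus strand. Its levels ran from 53.9 through a median of 126 to 147 CPM in wildtype and from 98.2 through 107 to 123 CPM in APOE-KO. Wildtype library 3 was the lowest of all 12, and the other wildtype libraries lay between 117 and 147 CPM. All 6 APOE-KO libraries were below the wildtype median, yet they lay inside the wildtype range. Sorl1 had a log2 fold change of -0.10 ± 0.18 (SE), with a 95% interval of -0.47 to 0.26 (adjusted p = 0.883, edgeR). It was -0.24 without wildtype library 3 (adjusted p = 0.403) and 0.15 with the B cell marker mean as a covariate (adjusted p = 0.870).

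Lsr encodes the lipolysis-stimulated lipoprotein receptor, which binds apolipoproteins B and E in the presence of fatty acids. The same protein, as angulin-1, marks the corners where epithelial cells meet. The locus covers bases 30957770 to 30973464 of chromosome 7, minus strand, 11.3 Mb from Apoe. Its levels ran from 32.8 through a median of 44.9 to 65.9 CPM in wildtype and from 32.1 through 36.5 to 50.5 CPM in APOE-KO, with wildtype library 3 again the highest. Lsr had a log2 fold change of -0.25 ± 0.19 (SE), with a 95% interval of -0.64 to 0.13 (adjusted p = 0.642, edgeR). It was -0.11 without wildtype library 3.

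Since Lsr is known from epithelia, the epithelial markers were set beside it and beside Vldlr. Of the 12 markers 6 could be tested, all with a negative log2 fold change (median -1.68), and Elf3 had no read in any APOE-KO library. Among those 6, the lowest APOE-KO level was 0 CPM for Krt8, Krt18, Krt19 and Wfdc2, 0.848 CPM for Epcam and 7.84 CPM for Cdh1. The sum thus mixes markers that reached 0 with markers that did not. Wildtype library 3 held most epithelial marker RNA and also most Lsr and most Vldlr. Elsewhere the order differed for Lsr: APOE-KO library 6 held 8.69 CPM of epithelial markers and 35.2 CPM of Lsr, while wildtype library 5 held 127 CPM of the markers and 32.8 CPM of Lsr. The libraries with least marker RNA, APOE-KO libraries 5 and 6, were the lowest for Vldlr. Over the 12 libraries, with each genotype centred on its own mean, Pearson's r between the log2 marker sum and the gene was 0.23 for Lsr (Spearman's rho 0.30) and 0.78 for Vldlr (rho 0.71). Permuting libraries within a genotype gave p = 0.405 for r and 0.328 for rho in Lsr, and p = 0.00286 and 0.0289 in Vldlr (100000 permutations, two-sided). Adjusted over the 70 relations of the 7 genes with 10 marker lists, the p of r was 0.871 and 0.200 and that of rho 0.858 and 0.692, so neither relation passed. Without the 2 libraries farthest from the median of the marker sum, APOE-KO libraries 4 and 6, r was 0.47 for Lsr and 0.72 for Vldlr. Among the other marker lists, over all 12 libraries, the r largest in size for Lsr was 0.60, with conventional dendritic markers (rho 0.68). For Vldlr it was -0.72, with neutrophil markers (rho -0.64). After adjustment over the 70 relations the permutation p of r was 0.665 for each. Adding the epithelial mean to the fit gave log2 fold changes of -0.19 for Lsr and 0.43 ± 1.17 (SE) for Vldlr. The marker sums of the genotypes overlapped only through APOE-KO library 4, so this covariate largely follows genotype. The other angulin and tight junction genes gave 0 calls among 5 tested, with a median log2 fold change of -0.17. Of these, the tight junction scaffold gene Tjp1 had a wildtype mean of 4.32 ± 2.00 and an APOE-KO mean of 3.07 ± 1.47 CPM, and Ildr1, which encodes angulin-2, had 9.48 ± 3.94 and 7.73 ± 3.72 CPM (SD, n = 6 each).

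**Figure D2:**
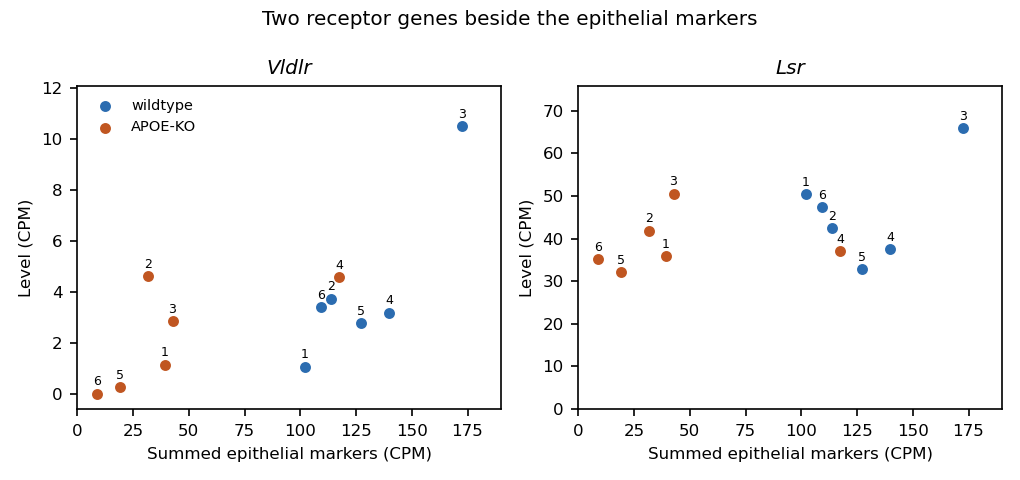
Level of Vldlr (left) and Lsr (right) in CPM against the summed level of 12 epithelial markers in CPM, each point 1 library with its replicate number, wildtype in blue and APOE-KO in orange. APOE-KO library 6 is lowest in markers at 8.69 CPM and holds no Vldlr read, while its Lsr level of 35.2 CPM lies among those of libraries rich in markers.

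Scarb1 encodes scavenger receptor class B type 1, the receptor for high-density lipoprotein, which takes cholesteryl esters from the particle without swallowing it whole. The locus covers bases 125277087 to 125341094 of chromosome 5, minus strand. Wildtype levels ran from 26.0 through a median of 52.9 to 60.7 CPM and APOE-KO levels from 32.7 through 40.2 to 60.0 CPM. Of the APOE-KO libraries 5 lay below the wildtype median, but the lowest value of all belonged to wildtype library 1. Scarb1 had a log2 fold change of -0.21 ± 0.19 (SE), with a 95% interval of -0.61 to 0.19 (adjusted p = 0.742, edgeR). It was -0.33 without wildtype library 1 and -0.14 without wildtype library 3.

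Lrpap1 encodes the receptor-associated protein, a chaperone of the endoplasmic reticulum that holds new LDL receptor family proteins in an inactive state until they reach the Golgi. Bases 35091501 to 35105766 of chromosome 5, minus strand, hold the gene. Its levels ran from 14.3 through a median of 19.3 to 21.2 CPM in wildtype and from 12.8 through 18.6 to 22.4 CPM in APOE-KO. The log2 fold change was -0.07 ± 0.23 (SE), with a 95% interval of -0.55 to 0.41 (adjusted p = 0.951, edgeR).

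Chaperone and receptor were also compared within each library, where no scaling is needed. This ratio divides by the Lrp1 reads, so it is not separate from the comparison of Lrp1 itself. The log2 fold changes of the single genes were 0.47 for Lrp1 (adjusted p = 0.321, edgeR) and -0.07 for Lrpap1. In wildtype there were 0.434 to 0.694 Lrpap1 reads for each Lrp1 read (median 0.584), and in APOE-KO 0.284 to 0.649 (median 0.371). Of the APOE-KO libraries, library 1 alone stood above the wildtype median. The mean log2 ratio was -0.80 ± 0.26 for wildtype libraries and -1.36 ± 0.42 for APOE-KO libraries (SD, n = 6 each), a difference of -0.56. The two-sided exact permutation p was 0.0260, or 0.0519 adjusted over the 2 ratios tested, so the difference did not pass. It was -0.64 without wildtype library 3 (adjusted exact p = 0.0152) and -0.71 without APOE-KO library 1 (adjusted exact p = 0.00866), and those were the only fits leaving out 1 library in which it passed.

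For the sorting receptor, there were 1.26 to 5.88 Sorl1 reads for each Lrp1 read in wildtype (median 3.91) and 1.80 to 3.54 in APOE-KO (median 2.26). The difference in log2 ratio was -0.51 (two-sided exact permutation p = 0.171, and 0.171 adjusted over the 2 ratios). Without wildtype library 3 it was -0.80 (adjusted exact p = 0.0152). Both ratios divide by the Lrp1 reads, so they are not independent of each other or of the Lrp1 comparison. Sorl1 itself had a log2 fold change of -0.10.

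**Figure D3:**
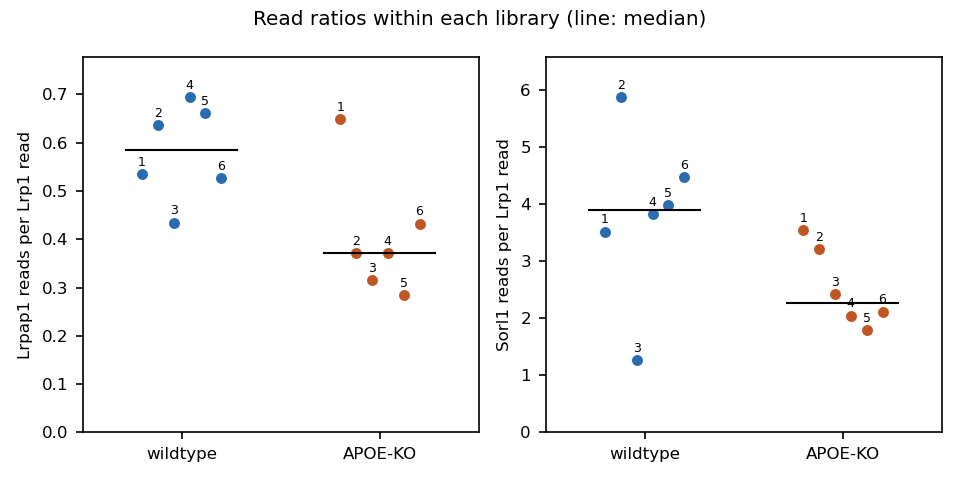
Reads of Lrpap1 (left) and of Sorl1 (right) for each Lrp1 read (y axes, linear), each point 1 library with its replicate number, and the line the group median. The medians were 0.584 in wildtype and 0.371 in APOE-KO on the left, and 3.91 and 2.26 on the right, with APOE-KO library 1 and wildtype library 3 set apart from their groups.

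The start of the Lrp1 and Lrpap1 genes is shown because the reads of these genes form that ratio. The stretches run from the far end of the RefSeq promoter window to the base before the annotated start (GRCm38.p6, minus strand, 5′ to 3′), chr10:127621149-127621398 for Lrp1 and chr5:35105767-35105949 for Lrpap1. Capitals mark the GC box, GGGCGG on either strand, a motif of promoters active in many cell types.
Lrp1: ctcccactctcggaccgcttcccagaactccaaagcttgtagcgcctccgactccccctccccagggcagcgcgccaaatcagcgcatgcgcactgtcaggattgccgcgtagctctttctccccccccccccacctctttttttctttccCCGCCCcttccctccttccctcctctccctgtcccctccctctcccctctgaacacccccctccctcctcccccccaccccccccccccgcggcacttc
Lrpap1: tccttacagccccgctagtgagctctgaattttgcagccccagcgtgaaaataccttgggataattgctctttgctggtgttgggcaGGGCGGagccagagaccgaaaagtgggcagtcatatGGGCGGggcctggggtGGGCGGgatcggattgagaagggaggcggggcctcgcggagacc
The Lrp1 stretch of 250 bases holds 1 GC box and the Lrpap1 stretch of 183 bases holds 3. In windows of 300 bases around RefSeq starts, 5 of the 6 genes with an entry (Lrp1, Lrpap1, Lsr, Sorl1 and Vldlr) held a GC box in at least 1 window. By window, it was in 5 of their 10, against 35.7% of all 32851 windows. Both strands were searched, and a match is a description, not a bound site.

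Around the receptors, single ligand and adaptor genes changed. Of 17 tested genes on the list of ligands, apolipoproteins and lipases, 4 rose and 1, the targeted Apoe, fell, with a median log2 fold change of 0.56, against 1.08% of all tested genes that rose and 0.411% that fell. Lipoprotein lipase, Lpl, which frees fatty acids from particles and also bridges them to receptors, went from 69.1 to 158 CPM in wildtype to 240 to 550 CPM in APOE-KO (3.15-fold, adjusted p = 9.24e-06, edgeR). Apoc1, an apolipoprotein that hinders the binding of remnants to LRP1, rose 4.89-fold from 2.71 ± 1.11 to 13.6 ± 3.63 CPM (adjusted p = 0.00142, edgeR). The groups did not overlap for Lpl and Apoc1. Whether the altered Apoe locus itself had a part in the rise of Apoc1 was not tested.

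Clu, clusterin, a lipid-carrying chaperone also known as apolipoprotein J, rose 1.51-fold (adjusted p = 0.0228, edgeR), and its groups overlapped. The complement gene C1qb rose 1.51-fold (adjusted p = 0.0391, edgeR) with groups apart. Leaving out 1 library at a time, Clu no longer passed when it was wildtype 4, 5 or 6 or APOE-KO 3, 4 or 6 (highest adjusted p = 0.0757). C1qb no longer passed when it was wildtype 1, 2, 5 or 6 or APOE-KO 1, 3, 4 or 6 (highest adjusted p = 0.143).

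Among genes of receptor trafficking, adaptors and turnover, 1 of 20 tested fell and 0 rose (median log2 fold change 0.06), against 0.411% and 1.08% of all tested genes. The gene that fell was Dab2, a clathrin adaptor that gathers LDL receptor family proteins into coated pits. Its wildtype libraries held 30.1 to 49.2 CPM and its APOE-KO libraries 7.56 to 22.1 CPM, a 3.28-fold fall (log2 fold change -1.71 ± 0.24 SE, adjusted p = 0.000234, edgeR). The macrophage markers Mrc1, Timd4 and Marco also fell (adjusted p = 0.00342, 0.00223 and 3.15e-06, edgeR). On the same list of 13 tested markers 2 rose, Cd5l and C1qb (adjusted p = 4.23e-06 and 0.0391, edgeR). With the mean of all macrophage markers as a covariate the log2 fold change of Dab2 was -1.70, and the part of the 3 markers that fell was not tested. Mylip, also called Idol, a ubiquitin ligase that sends receptors of this family to degradation, had a wildtype mean of 61.5 ± 12.3 and an APOE-KO mean of 86.5 ± 19.5 CPM (SD, n = 6 each; adjusted p = 0.199, edgeR). Of the fits leaving out 1 library, Mylip passed only without APOE-KO library 5 (adjusted p = 0.0489). Further LDL receptor and VPS10 family genes gave 0 calls among 7 tested, with a median log2 fold change of -0.02. Of these, Lrp12 had 8.96 ± 4.32 and 13.8 ± 8.04 CPM (SD, n = 6 each; adjusted p = 0.619, edgeR), and Ldlrad4 had 5.74 ± 5.72 and 3.48 ± 2.31 CPM (adjusted p = 0.701).

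Of 14 tested genes of other lipoprotein and scavenger receptors, 1 rose and 1 fell (median log2 fold change 0.20), against 1.08% and 0.411% of all tested genes. Cxcl16, a surface chemokine that also binds oxidised lipoprotein, rose 1.72-fold, from 206 to 269 CPM in wildtype to 351 to 475 CPM in APOE-KO (adjusted p = 0.000473, edgeR). Marco, a scavenger receptor of macrophages, fell 2.92-fold, from 185 to 300 CPM to 61.6 to 109 CPM (adjusted p = 3.15e-06, edgeR). The groups did not overlap for either gene. With the epithelial marker mean as a covariate, the calls of Cxcl16, Apoc1, Clu and C1qb ended, and those of Lpl, Dab2 and Marco did not. The epithelial sums of the genotypes overlapped only through APOE-KO library 4, so this covariate largely follows genotype and separates the 2 poorly. Of the other marker genes called, Cdh1, Mrc1, Timd4, Sirpa, Clec10a, Ccr7, Runx2 and Cox6a2 also lost their calls in this fit. Cd5l, Siglech and Klk1 kept theirs. The log2 fold changes were 0.68 against 0.78 for Cxcl16, 2.23 against 2.29 for Apoc1, 0.56 against 0.60 for Clu and 0.94 against 0.60 for C1qb. Their SE grew, to 0.18 from 0.12, to 0.56 from 0.38, to 0.21 from 0.14 and to 0.21 from 0.15.

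Trem2, a lipid-sensing receptor of macrophages that also binds apolipoprotein E, was on that list but fell below the filter on low counts, and is named after its values were seen. It held 5 reads over the 6 wildtype libraries, at most 3 in 1 library, and 114 over the 6 APOE-KO libraries, 6 to 31 in each. Every APOE-KO library was above every wildtype library, at 1.98 to 7.79 CPM against 0 to 0.850 CPM. No test is given, since that separation is what singled the gene out.

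**Figure D4:**
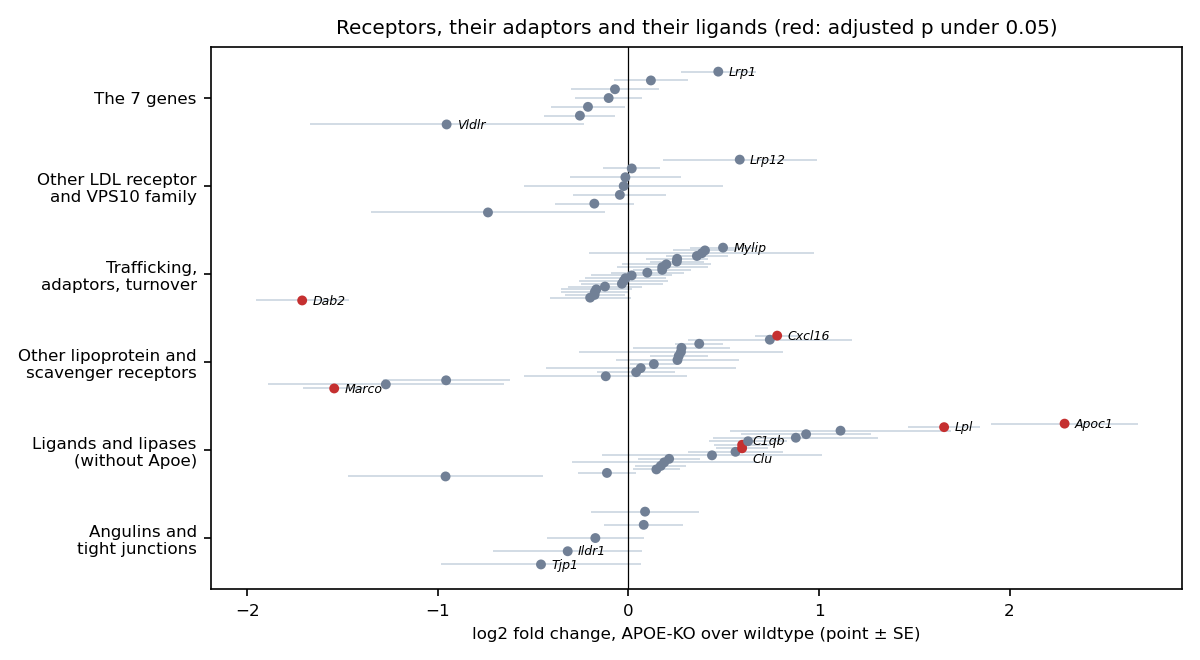
Log2 fold change of APOE-KO over wildtype (x axis, point ± SE) for the 7 genes and for the tested genes of 5 related lists, 1 row of points per list and red where the adjusted p is under 0.05. The 7 genes hold no red point and run from -0.95 (Vldlr) to 0.47 (Lrp1), whereas Dab2 and Marco lie to the left and Cxcl16, Clu, C1qb, Lpl and Apoc1 to the right. Apoe, at -6.43, is left out of the picture.

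Genes whose pattern was most like each of the 7 were sought over the 12 libraries, after each genotype was centred on its own mean. The measure was Pearson's r of log2 CPM among about as many genes for each, 9334 or 9335 of at least 5 CPM. These values are descriptions, since the highest of so many is always high and the libraries share their cell mixture and depth. For Lrp1 the nearest was Rela, the p65 subunit of NF-kappa B (r = 0.91, Spearman's rho 0.90), followed by Trappc4 and Fcmr. For Scarb1 it was Dok3, an adaptor of immune receptors (r = 0.96, rho 0.90), then Aimp2 and Tmem41b. Nearest to Lrp8 were Myo5a, Pabpc1 and Vps13a (r = 0.94, 0.94 and 0.92), and nearest to Lrpap1 were Ndufaf1, Igfbp4 and Rnf130 (r = 0.90, 0.88 and 0.86). Lsr was closest to Setd7, Fbl and Dnaaf2 (r = 0.88, 0.87 and 0.87), and Vldlr to Gpr137b, Cox6b2 and Gdap2 (r = 0.88, 0.86 and 0.84).

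Leaving out the 2 libraries farthest from the median of the gene kept most of these values between 0.65 and 0.93. The exceptions were for Sorl1, whose nearest genes were Supt5, Lysmd3 and Jak1 at r = 0.94, 0.94 and 0.94. Without the 2 libraries the r of Supt5 dropped to 0.65, and those of Lysmd3 and Jak1 to 0.55 and 0.46. The high r values of Sorl1 thus rest largely on those libraries.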

How the data were processed

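The deposited values are raw read counts by gene symbol for 12 Lexogen 3′ FWD libraries, per the labels' protocols. Per the submitters' processing notes the authors used build mm10, the aligner STAR (2.7.8a), the counter featureCounts (1.5.1), and DESeq2 (1.4) under R (4.1.0). The annotation, the strand setting, the treatment of reads with several matches and any use of molecular identifiers were not given in the sources used here. Antisense genes overlap exons of Sorl1 (1 gene) and Lsr (2 genes), so their counts are uncertain to that extent. Library columns were matched by the labels' short descriptions, and genotype set the groups.

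The test was that of edgeR 4.0.16 under R 4.3.3: filterByExpr (minimum count 10, total 15; 10714 genes kept), TMM scaling, glmQLFit and glmQLFTest on genotype with all 12 libraries, and Benjamini-Hochberg adjustment over all genes tested, threshold 0.05. The SE was derived from the log2 fold change and its F statistic. Single values used two-sided exact tests (over all assignments of 6 of the 12 libraries, or all sign flips). At 3 reads a library's floor was 0.525 to 1.59 CPM. Intervals that come from read counts alone, such as this floor, cover counting error only. The fit was tested on simulated data. Alternatives were other size factors, filters and tools (DESeq2 1.42.0, limma-voom 3.58.1), a replicate block, covariates and leaving out libraries. All pairs of libraries within a genotype differed by more than sampling noise.

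The genes, lists and tests were chosen with earlier results of these data known. From each related list the text names members that passed and the 2 with the smallest p, and for each of the 7 genes the 3 most alike. A gene that the rule names is not reported here and is left out of its list.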

Additional observations from a re-analysis of the deposited data

Results flagged for a closer look

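Among the 14 sets of 6 libraries (7 genes in 2 genotypes), 3 held a library whose gap to its nearest neighbour was too large a part of the range of its set by Dixon's test at the 95% level, which chance alone flags in about 1 set in 20. Vldlr stood at 10.5 CPM in wildtype library 3, and the next wildtype library was at 3.73 CPM. Sorl1 stood at 53.9 CPM in wildtype library 3, and the next lowest was at 117 CPM. Scarb1 stood at 26.0 CPM in wildtype library 1, and the next lowest was at 51.0 CPM. Those are the libraries with the lowest and the highest share of Rn45s (2.71% and 32.2%). With that share as a covariate, the log2 fold changes were -0.51 for Vldlr, -0.18 for Sorl1 and -0.12 for Scarb1, and none passed (adjusted p = 0.828, 0.597 and 0.822 in edgeR's test).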

How the results depend on the processing

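None of the 7 genes passed in any of 27 alternative fits. Leaving out 1 library at a time, log2 fold changes ran from 0.34 to 0.58 for Lrp1, 0.01 to 0.22 for Lrp8, -0.15 to 0.00430 for Lrpap1 (0.00367 without APOE-KO library 2 and 0.00430 without APOE-KO library 3), -0.34 to -0.11 for Lsr, -0.33 to -0.14 for Scarb1, -0.24 to -0.03 for Sorl1 and -1.31 to -0.40 for Vldlr. The direction also turned with the epithelial mean as a covariate for Vldlr (0.43) and Lrpap1 (0.0146), and for Sorl1 with the B cell mean (0.15) and in limma-voom (0.000434). Without wildtype libraries 1 and 3 and APOE-KO library 5, Lsr was at -0.000759. The cause of these turns was not tested. The difference in the Lrpap1 to Lrp1 ratio ran from -0.71 to -0.47 and that in the Sorl1 to Lrp1 ratio from -0.80 to -0.36 over fits leaving out 1 library. Of the related lists' genes, 5 rose, or 3 to 6 leaving out 1 library, 3 without scaling, 3 with the B cell mean, 3 with a replicate block, 1 with the epithelial mean and 7 with the share of Rn45s as a covariate, and 3 fell, as did 3 in each of the 27 alternatives.

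Libraries of the 2 genotypes with the same number did not deviate together (correlations of their deviations -0.08 to 0.02, and 0 of 6 wildtype libraries correlated best with its own number). With a replicate block the log2 fold changes were 0.47 for Lrp1, 0.15 for Lrp8, -0.05 for Sorl1, -0.23 for Lsr, -0.20 for Scarb1 and -1.20 for Vldlr, the calls of Clu and C1qb ended (adjusted p = 0.0773 and 0.0670, at log2 fold changes of 0.61 and 0.59, against 0.60 for both without it), and the adjusted exact p of the Lrpap1 to Lrp1 ratio was 0.125. The calls of Sirpa and Cox6a2 also ended with that block (adjusted p = 0.145 and 0.0735, edgeR). Depth limits Vldlr most, with at most 60 reads in a library.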
